A study of Homo sapiens with 8 samples.

Results

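A204 is an established human malignant rhabdoid tumor (MRT) line without the chromatin remodeler subunit SMARCB1, and the 2 arrays made in sunitinib were set against the 4 arrays made in dasatinib or pazopanib. The 2 sunitinib arrays, of 8 in the series, were parental A204 in 5 µM sunitinib and SunR, the subline with acquired resistance to sunitinib, in 5 µM sunitinib. The comparison arrays were parental cells in 5 µM dasatinib, parental cells in 5 µM pazopanib, DasR in dasatinib and PazR in pazopanib, the last pair also at 5 µM and each in the drug it had become resistant to. Cell state, parental or resistant, was held as a block. Each sunitinib array was thus read against the other drugs in cells of the same state. In the resistant state each drug had its own subline, so drug and subline cannot be told apart there. The remaining 2 arrays were parental cells with no drug by their labels (the methods speak of a vehicle control) and were used only for orientation. The sublines came from stepwise exposure to rising drug concentrations, and each is 1 line on 1 array. The labels give no exposure time for the parental cells. Nothing in them says that arrays came from separate cultures, so every p-value measures only the spread between these arrays, which may be technical.

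Dasatinib, pazopanib and sunitinib are tyrosine kinase inhibitors (TKIs) that share PDGF receptors and KIT among their targets and differ in chemical scaffold: sunitinib is an indolinone, dasatinib an aminothiazole and pazopanib an indazolyl pyrimidine. When sterols run low in the endoplasmic reticulum, INSIG proteins release SCAP, and SREBP factors reach the nucleus and switch on cholesterol and fatty acid synthesis. In the integrated stress response, phosphorylation of the initiation factor eIF2α raises translation of ATF4, which with C/EBP partners induces amino acid synthesis enzymes, transporters and tRNA synthetases.

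All values are log2 signals after quantile normalization, for 48107 probes on HumanHT-12 v4 BeadChips, of which 30113 matched exactly 1 gene symbol (20039 genes). Precision is limited by there being 6 treated arrays. The array median was 6.67, and a probe near it is close to background. SMARCB1 lay there on all 8 arrays, between 6.64 and 6.93, while VIM, the intermediate filament of mesenchymal cells, lay between 13.85 and 14.67 on its 2 probes. The 5 lists of other cell types' markers held no called gene and averaged 6.46 to 7.19 on every array. Few of their genes lay above the 75th percentile of signal over all probes (7.56). They were 3 of 16 neural, 1 of 13 myogenic, 1 of 13 epithelial, 2 of 12 leukocyte and 0 of 10 endothelial markers. Of all 20039 genes, each likewise read by its brightest probe, 7910 lay above that level. SunR stood apart from the rest on the high side, as 177 probes lay over 1 log2 unit above all 7 other arrays and 40 over 2 units, against 0 to 36 and 0 to 8 for any other array. On the low side DasR stood apart, with 86 probes over 1 unit below all 7 others. SunR had 22 such probes and any remaining array at most 8. Parental cells in dasatinib and in pazopanib resembled each other, with 83 probes on which this pair differed from all 6 other arrays by over 1, against 20 for the 2 sunitinib arrays as a pair and 20 for parental sunitinib with the second untreated array. SunR and PazR shared 40 such probes. The ribosomal RNA probes (RNA28SN5 and RNA18SN5) read 10.69 to 12.55 on the treated parental arrays and the second untreated array, and 8.35 to 10.16 on the sublines and the first untreated array, a division that coincides with cell state among the 6 treated arrays.

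Most probes called between sunitinib and the other drugs were higher in sunitinib. At a Benjamini-Hochberg adjusted p under 0.05 in limma, 44 of 48107 probes passed (0.0915%), 41 of them higher in sunitinib (0.0852%) and 3 lower (0.00624%). They covered 33 named genes, 30 higher and 3 lower, and 8 probes without a name here, led by ILMN_1703477 at 1.84. In whole-culture RNA, fewer cells that use a gene and less RNA of it per cell cannot be told apart. The higher probes differed by 0.57 to 2.63 on the log2 scale, with a median of 1.39, and the median was 1.40 in parental and 1.46 in resistant cells. In each cell state, the sunitinib array lay outside both other drugs on the same side for all 44 probes (13.6% of all probes lay above and 15.3% below in both states). Both sunitinib arrays lay outside all 4 others, whatever the state, for 43 of the 44 (6.88% of all probes lay above and 7.27% below in this way). The call itself favors such probes, so these shares only describe them. Against the untreated arrays too, most were high in sunitinib. In 38 of the 41 higher probes both sunitinib arrays read above all 6 others. Parental sunitinib exceeded the untreated mean by a median of 1.32, against -0.15 for the mean of parental dasatinib and pazopanib. In 27 of the 41 the latter mean lay below both untreated arrays. Without the cell state block no probe passed in limma (2333 at an unadjusted p under 0.05, against 4908 or 10.2% with it). The count fell to 5 without the parental dasatinib array, to 4 without the parental pazopanib array and to 16 without PazR, and rose to 113 without DasR, 405 without parental sunitinib and 351 without SunR. The balance of directions moved too, since 347 of the 405 but 156 of the 351 were higher in sunitinib. HMGCS1, SCD and AKNA kept the call whichever of the 6 arrays was left out, while 30 of the 33 genes lost it at least once, and none of the 33 changed direction in any alternative run.

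**Figure D1:**
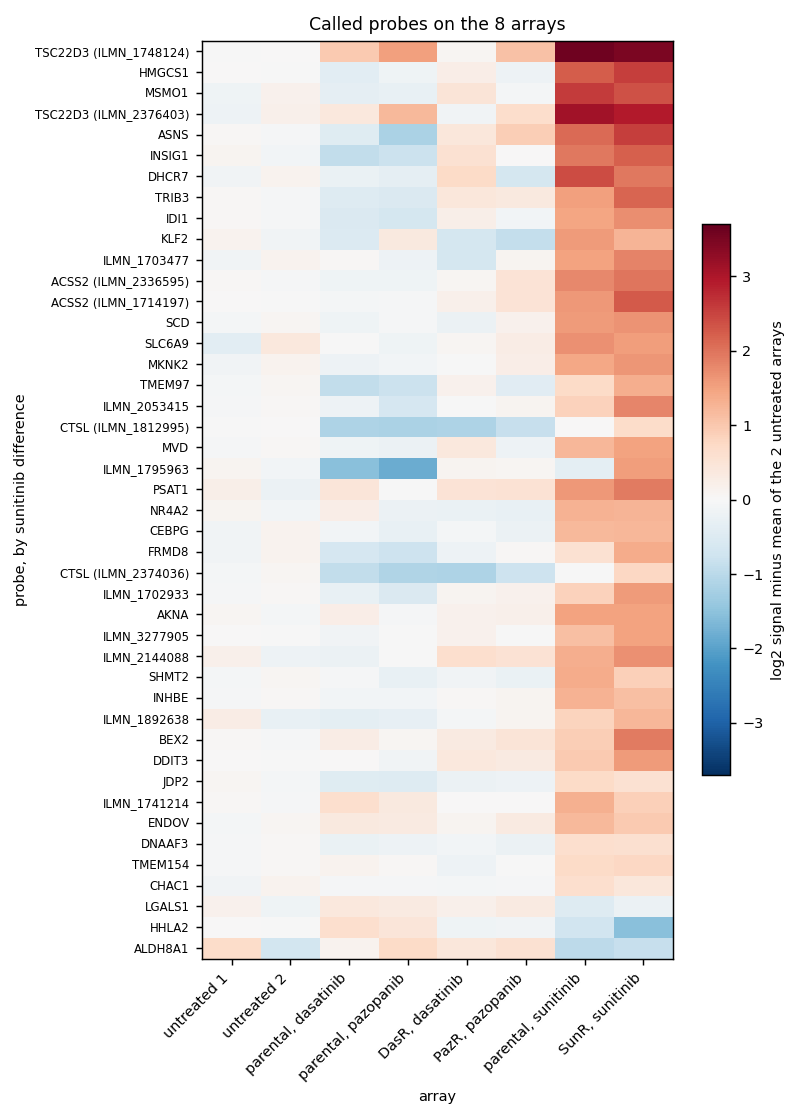
Each row is 1 of the 44 probes called in limma, ordered by the sunitinib difference, each column is 1 array, and color gives the log2 signal minus the mean of the 2 untreated arrays. The 2 sunitinib columns are red for most of the 41 higher probes, while the CTSL rows are near 0 in parental sunitinib and blue in all 4 dasatinib and pazopanib columns.

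Cholesterol synthesis enzymes were among the genes with the highest differences. Of 18 measured enzymes, 5 passed and were higher in sunitinib, where 29 of 20039 genes did when each was read by its brightest probe (0.145%, and 0.00998% were lower). At an unadjusted p under 0.05, 14 of the 18 were higher and none lower, against 6.93% and 5.2% of all genes, and 13 lay above both other drugs in each cell state, against 15.6%. Their median difference was 1.14, with 1.07 in parental and 1.13 in resistant cells, and the median of all genes was 0.00. The lists, here and below, were chosen with earlier results of these data known. The shares of all genes set beside them are thus a description. Bases before the annotated start are shown for both leading genes, HMGCS1 and MSMO1. Where a gene had several annotated starts, only the most upstream was read, here and below (35116 listed promoters for 27305 genes). The windows are shown because the CCAAT box (CCAAT on either strand), the site of the SREBP partner NF-Y, recurs among these genes. The capitals mark each CCAAT box in the 250 bases (RefSeq, GRCh38.p14, 5′ to 3′ on the gene's strand), chr5:43313413-43313662 on the minus strand and chr4:165327419-165327668 on the plus strand.
HMGCS1: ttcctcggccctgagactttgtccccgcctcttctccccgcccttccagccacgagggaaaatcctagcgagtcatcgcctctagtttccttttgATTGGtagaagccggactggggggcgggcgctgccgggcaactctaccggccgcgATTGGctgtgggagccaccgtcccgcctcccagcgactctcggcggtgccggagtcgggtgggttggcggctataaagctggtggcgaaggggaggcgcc
MSMO1: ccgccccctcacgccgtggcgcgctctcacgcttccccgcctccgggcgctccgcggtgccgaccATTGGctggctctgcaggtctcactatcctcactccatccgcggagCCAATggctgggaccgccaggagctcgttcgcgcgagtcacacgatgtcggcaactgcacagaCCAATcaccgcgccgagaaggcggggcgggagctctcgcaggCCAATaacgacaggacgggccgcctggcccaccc
Such windows held at least 1 CCAAT box in 7 of the 9 called genes of the sterol and fatty acid lists. The same was true of 22 of the 42 genes of those lists with a window, and of 33% of all 27305 promoters. Among the stress genes treated below, 17 of 34 with a window held the box, as did 4 of the 7 called there. Of all called genes with a window, 14 of 28 held it. The box was thus not particular to the sterol and fatty acid lists. The classical sterol regulatory element, searched as TCACNCCAC on both strands, matched 0.868% of all promoters, 1 of the 42 and none of the 9, which says only that these letters are not in these windows. A match is a description of the sequence and not evidence of binding.

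HMGCS1, which makes HMG-CoA early in the mevalonate pathway, read 11.17 in parental sunitinib and 11.47 in SunR. It read 8.53 in parental dasatinib, 8.75 in parental pazopanib, 9.18 in DasR and 8.72 in PazR, and 8.95 and 8.89 without drug. Both sunitinib arrays were high and all 6 others low, with no overlap, and the difference was 2.53 ± 0.21 (SE, 95% CI 2.06 to 3.00, 5.76-fold, limma adjusted p = 0.00387). MSMO1, the sterol-C4-methyl oxidase, read 11.76 and 11.53 in the 2 sunitinib arrays, against 8.83, 8.91, 9.66 and 9.10 in parental dasatinib, parental pazopanib, DasR and PazR, and 9.03 and 9.33 untreated. This was the same division, with DasR the highest of the low arrays, and the difference was 2.52 ± 0.25 (SE, adjusted p = 0.00412). A second MSMO1 probe gave 1.36 (adjusted p = 0.243) with a difference in SunR (10.94 against 8.76 and 8.28) and little in parental cells (7.56 against 7.14 and 7.38), and another, near background, gave 0.02. INSIG1, which holds SCAP in the endoplasmic reticulum and is itself an SREBP target, read 11.12 in parental sunitinib and 11.39 in SunR, against 8.26, 8.38, 9.73 and 9.19 in the other drugs in the same order. The untreated arrays read 9.27 and 9.08, between the sunitinib arrays and the low parental arrays, so that parental sunitinib lay 1.95 above the untreated mean and parental dasatinib and pazopanib at -0.86 from it. The INSIG1 difference was 2.37 ± 0.26 (SE, adjusted p = 0.00796), and a second, dim probe gave 0.52 (adjusted p = 0.208).

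DHCR7, a late enzyme of cholesterol synthesis, was higher by 2.32 ± 0.32 (SE, adjusted p = 0.0322), reading 10.25 and 9.78 in the 2 sunitinib arrays against 7.19 in PazR to 8.53 in DasR, with 1.75 on a second probe (adjusted p = 0.0742). IDI1, the isopentenyl diphosphate isomerase, was higher by 1.86 ± 0.21 (SE, adjusted p = 0.00959) and read 10.50 and 10.74, against 8.38 to 9.25 in the other drugs. MVD, mevalonate diphosphate decarboxylase, was higher by 1.40 ± 0.17 (SE, adjusted p = 0.0148), with 8.58 and 8.84 against 7.13 to 7.75. In each of these 3 genes the arrays did not overlap, and DasR was the highest of the 4 comparison arrays. TMEM97, a sterol-regulated membrane protein that binds NPC1, was also called, at 1.51 ± 0.22 (SE, adjusted p = 0.0384), while a second TMEM97 probe gave 0.47 (adjusted p = 0.46). On the called probe, the parental arrays in dasatinib (9.27) and pazopanib (9.40) lay below the untreated arrays (10.10 and 10.26), while parental sunitinib (10.88) and SunR (11.51) lay above them. The next enzymes missed the threshold with differences of like size, with FDPS at 1.49 (adjusted p = 0.0516), SQLE at 1.49 (0.0878), NSDHL at 1.27 (0.0949) and LSS at 1.01 (0.115). SC5D stood out within the list because its difference was 0.68 in parental and 2.42 in resistant cells, although the interaction did not pass (adjusted p = 0.0813). PMVK (-0.02), HSD17B7 (-0.15) and GGPS1 (0.25) showed no sunitinib difference beyond their spread, and the sterol transporter gene ABCA1 read low in parental sunitinib (7.58) and DasR (7.59) alike, so that its difference of -1.45 had an adjusted p of 0.489. Of 13 genes of sterol uptake and SREBP control, the called genes were INSIG1 and TMEM97, and SREBF2 (0.14) and SREBF1 (-0.15), which encode the SREBP factors, did not pass.

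**Figure D2:**
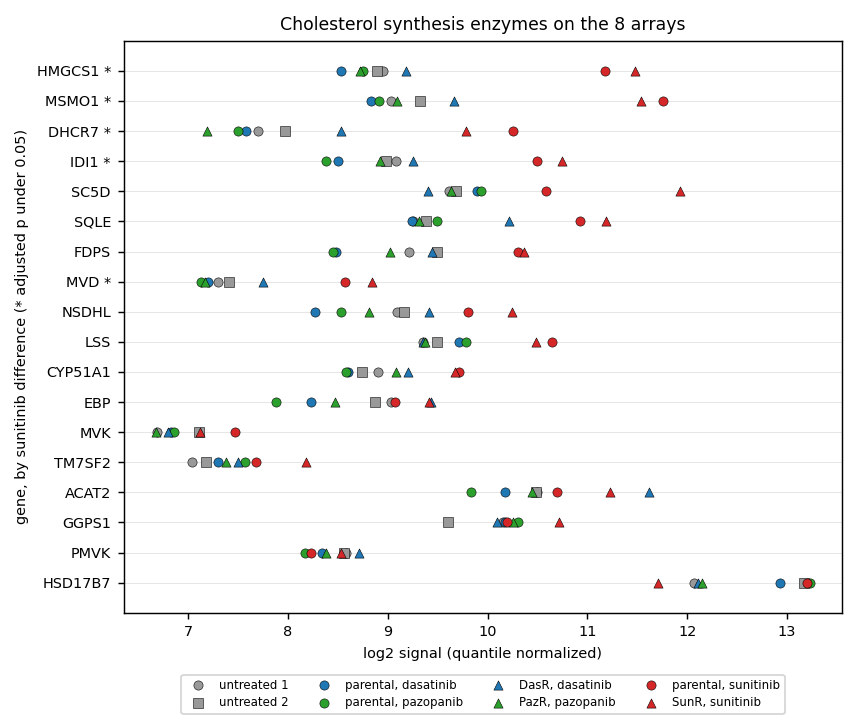
The horizontal axis is the log2 signal on each of the 8 arrays for the 18 cholesterol synthesis enzymes, ordered by the sunitinib difference, with colors for the drug, circles for parental and triangles for resistant cells, and gray for untreated cells, and asterisks mark an adjusted p under 0.05 in limma. From HMGCS1 down to CYP51A1 both red points lie to the right of every other point, and at EBP, ACAT2, GGPS1, HSD17B7 and PMVK they mix with the rest.

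Fatty acid synthesis genes were partly higher. SCD, the desaturase that makes monounsaturated fatty acids, read 13.50 in parental sunitinib and 13.59 in SunR, against 11.75, 11.89, 11.70 and 12.08 in parental dasatinib, parental pazopanib, DasR and PazR. The untreated arrays lay among the low ones, between parental dasatinib and PazR, and the difference was 1.69 ± 0.15 (SE, 95% CI 1.36 to 2.03, adjusted p = 0.0039). ACSS2, which makes acetyl-CoA from acetate, passed on 2 of its 4 probes, at 1.81 ± 0.21 (SE, adjusted p = 0.0121) and 1.79 ± 0.20 (SE, adjusted p = 0.00959), and the other 2, near background, gave 0.16 and -0.05. The first of these probes read 11.17 and 11.39 in sunitinib against 9.25 to 9.91 in the other drugs. Of 16 measured genes of the list, 2 passed (0.145% of all genes passed higher), 9 were higher and none lower at an unadjusted p under 0.05 (6.93% and 5.2% of all genes), and the median difference was 0.51. FASN, the fatty acid synthase, was at 0.92 (adjusted p = 0.365) and read 12.10 in SunR and 12.11 in DasR, so SunR and DasR did not separate. HSD17B12 (0.95, adjusted p = 0.0692) and LPIN1 (0.94, adjusted p = 0.121) came nearest to the threshold, while ACACA (0.22), ELOVL5 (0.04) and ACACB (-0.05) differed little.

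Amino acid and integrated stress response genes held the most calls of the 35 lists, which differed in size from 8 to 44 measured genes. Of 41 measured genes, 8 passed, all higher in sunitinib (0.145% of all genes passed higher), and 32 were higher and none lower at an unadjusted p under 0.05 (6.93% and 5.2% of all genes). In both cell states 37 of the 41 lay above both other drugs, against 15.6% of all genes, and the median difference was 0.87, with 1.09 in parental and 0.71 in resistant cells. For ASNS and CHAC1, which both hold a match to TGATGNAA, the composite element that ATF4 and C/EBP proteins bind, the 250 bases before the start are shown, with matches to TGATGNAA and to CCAAT on either strand in capitals (RefSeq, GRCh38.p14). They are chr7:97872409-97872658 on the minus strand and chr15:40953221-40953470 on the plus strand.
ASNS: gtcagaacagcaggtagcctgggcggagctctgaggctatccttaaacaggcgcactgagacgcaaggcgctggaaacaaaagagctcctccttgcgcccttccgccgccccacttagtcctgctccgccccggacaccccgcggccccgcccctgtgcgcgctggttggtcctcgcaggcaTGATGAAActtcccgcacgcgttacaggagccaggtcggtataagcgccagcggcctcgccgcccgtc
CHAC1: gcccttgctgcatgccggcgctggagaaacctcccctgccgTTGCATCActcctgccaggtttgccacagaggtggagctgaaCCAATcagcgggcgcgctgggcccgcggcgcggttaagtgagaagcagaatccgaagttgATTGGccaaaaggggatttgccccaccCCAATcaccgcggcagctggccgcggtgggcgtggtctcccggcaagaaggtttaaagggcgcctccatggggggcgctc
The TGATGNAA match reads TGATGAAA in ASNS, 68 bases before the start, and TTGCATCA in CHAC1 (the minus strand), 209 bases before it. The remaining capitals, in CHAC1, are 3 CCAAT boxes. TGATGNAA matched 3.19% of all 27305 promoters, 5 of the 34 genes of the list with a window and 2 of its 7 called genes with a window. DDIT3 and PSAT1 had no match in this stretch, which leaves more distant sites and any other annotated starts unread.

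ASNS, asparagine synthetase, read 12.21 in parental sunitinib and 12.65 in SunR. It read 9.65 in parental dasatinib, 8.94 in parental pazopanib, 10.51 in DasR, 11.02 in PazR, and 10.15 and 10.05 untreated. Both sunitinib arrays were above all others without overlap, parental dasatinib and pazopanib were the lowest, and the difference was 2.40 ± 0.29 (SE, 95% CI 1.76 to 3.04, adjusted p = 0.0146). A second ASNS probe gave 1.70 (adjusted p = 0.0523). TRIB3, a pseudokinase induced by ATF4 and DDIT3, read 9.78 and 10.41 in sunitinib against 7.79, 7.73, 8.68 and 8.62, and 8.31 and 8.22 untreated, a difference of 1.89 ± 0.18 (SE, adjusted p = 0.0039). DDIT3 itself, the C/EBP-family factor CHOP, read 8.70 and 9.33 against at most 8.12, a difference of 1.12 ± 0.16 (SE, adjusted p = 0.0347). In both genes SunR was the highest array of the 8 and parental sunitinib the next.

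PSAT1 and SHMT2, enzymes that make serine and move its carbon to mitochondrial folate, were higher by 1.39 ± 0.18 (SE, adjusted p = 0.0208) and 1.29 ± 0.19 (SE, adjusted p = 0.0449). PSAT1 read 12.50 and 12.81 in the sunitinib arrays against 10.89 to 11.43 in the other drugs. SHMT2 read 12.26 and 11.77 against 10.62 to 10.86, so parental cells were the higher of the pair here. SLC6A9, the glycine transporter GLYT1, was higher by 1.56 ± 0.20 (SE, adjusted p = 0.0208), with 10.21 and 10.06 against 8.37 to 8.81, while 2 further SLC6A9 probes near background gave 0.09 and -0.06. CEBPG, a dimer partner of ATF4, read 10.09 and 10.12 against 8.62 to 8.83, a difference of 1.37 ± 0.19 (SE, adjusted p = 0.0322). CHAC1, a glutathione-degrading enzyme induced by ATF4, read 7.16 and 6.97 against 6.47 to 6.51, a difference of 0.57 ± 0.08 (SE, adjusted p = 0.0347) close to background. ATF4 mRNA was at 13.78 in parental sunitinib and 13.93 in SunR against 12.99 to 13.52 in the other drugs, a difference of 0.57 (adjusted p = 0.115) that did not pass. NUPR1 (2.65, adjusted p = 0.0692), VEGFA (1.41, 0.0667), SLC3A2 (1.16, 0.0742) and GARS1 (0.91, 0.0989) were the nearest below the threshold. STC2 was at 2.56 (adjusted p = 0.115) and was unequal between states, reading 8.15 in parental sunitinib and 11.64 in SunR against 6.98 to 8.12 in the other drugs (interaction adjusted p = 0.0265). CTH, at -0.34, was the single member with a negative difference.

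**Figure D3:**
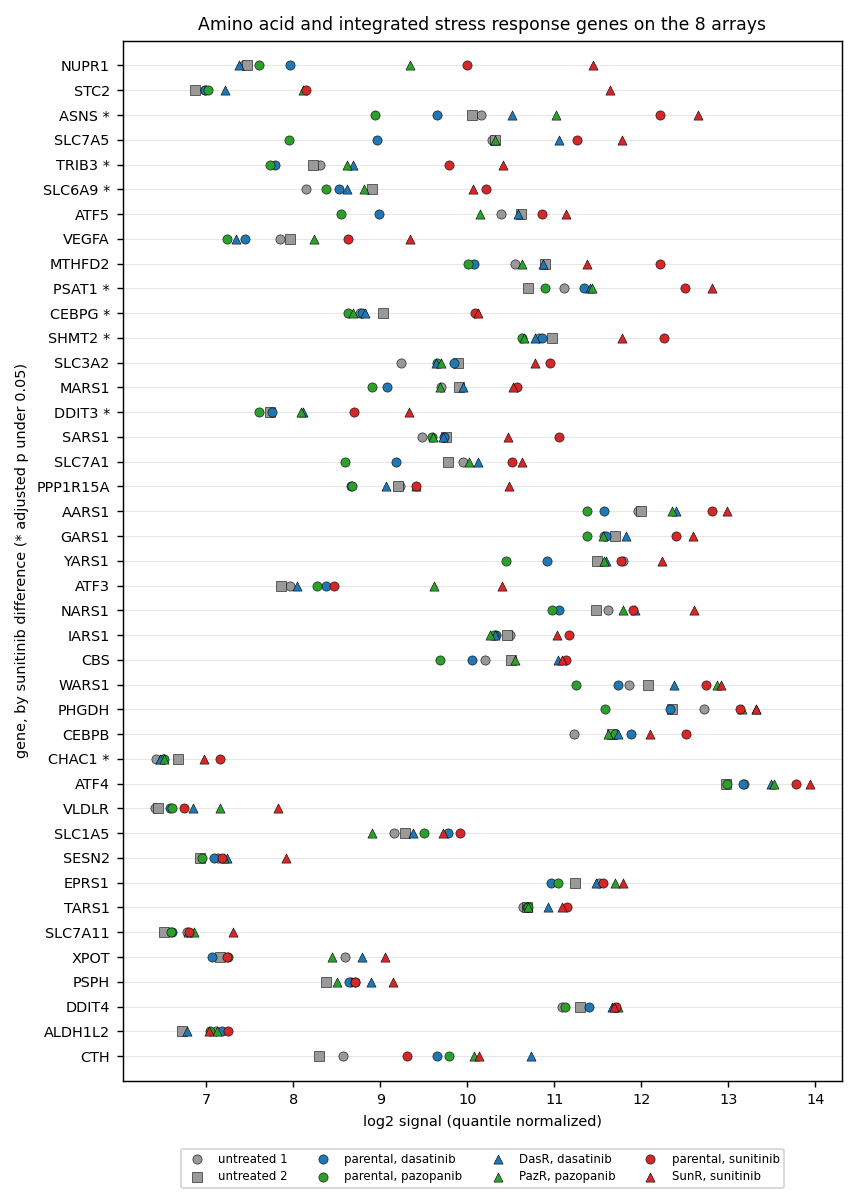
Log2 signal on the 8 arrays for the 41 amino acid and integrated stress response genes, ordered by the sunitinib difference, with colors and symbols for drug and cell state and asterisks for an adjusted p under 0.05 in limma. The red points are the rightmost for most genes from NUPR1 down to GARS1, and parental dasatinib and pazopanib are often the leftmost.

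Genes of the unfolded protein response, which shares DDIT3 with the ATF4 branch, had differences in both directions. Of 26 measured, none passed, 4 were higher and 6 lower at an unadjusted p under 0.05 (6.93% and 5.2% of all genes), and 13 differences were positive. HSPA5, the chaperone BiP, was at 1.12 (adjusted p = 0.0989), reading 11.15 and 10.56 in sunitinib against 9.51 to 10.01 in the other drugs and 10.45 and 10.19 untreated. CALR, a calcium-binding chaperone, was at -0.73 (adjusted p = 0.271). None of 21 heat shock genes passed, and their median was -0.11.

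Among called genes outside these lists, TSC22D3 had the highest difference of all 44 probes. TSC22D3, or GILZ, a glucocorticoid- and FOXO-induced leucine zipper gene, read 11.09 in parental sunitinib and 10.98 in SunR, against 8.46, 9.01, 7.56 and 8.57 in parental dasatinib, parental pazopanib, DasR and PazR. The untreated arrays, at 7.49 and 7.50, were the lowest, so that parental dasatinib and pazopanib lay 1.24 above them and parental sunitinib 3.60. The difference was 2.63 ± 0.30 (SE, adjusted p = 0.00959), and a second probe gave 2.49 ± 0.26 (SE, adjusted p = 0.00768). The other 3 TSC22D3 probes, with mean signals near background, ranged from -0.14 to 0.59. KLF2, a Krüppel-like factor, read 11.83 and 11.51 against 9.35 to 10.59, a difference of 1.86 ± 0.26 (SE, adjusted p = 0.0322). MKNK2, a kinase of the initiation factor eIF4E, read 11.92 and 12.12 against 10.29 to 10.74, a difference of 1.55 ± 0.19 (SE, adjusted p = 0.0146). A second, dimmer MKNK2 probe gave 0.38 (adjusted p = 0.69), with parental sunitinib (7.80) below parental dasatinib (8.10) and pazopanib (8.27), and passed the interaction (adjusted p = 0.0404). NR4A2, an orphan nuclear receptor, read 9.42 and 9.40 against 7.86 to 8.40, a difference of 1.39 ± 0.19 (SE, adjusted p = 0.0315), with 1.21 on a second probe (adjusted p = 0.0747). On the probes described first, these 4 genes read above the untreated arrays in both sunitinib arrays.

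AKNA, an AT-hook protein, read 7.98 in both sunitinib arrays against 6.45 to 6.75 in the other drugs, a difference of 1.34 ± 0.11 (SE, adjusted p = 0.00387). INHBE, the inhibin beta E subunit, read 8.06 and 7.87 against 6.67 to 6.85, a difference of 1.22 ± 0.11 (SE, adjusted p = 0.0039). JDP2, a bZIP repressor, was higher by 0.96 (adjusted p = 0.0347) and FRMD8, a regulator of the sheddase ADAM17, by 1.36 (adjusted p = 0.0357). BEX2 was higher by 1.12, with 1.51 in resistant cells and 0.74 in parental cells, which is also its value without SunR. DNAAF3 (0.80), the tRNA inosine endonuclease gene ENDOV (0.80) and TMEM154 (0.76) completed the genes that were higher, all between 6.66 and 7.95 on every array and thus at the dim end. ENDOV lies on chromosome 17, of which DasR had gained a part, and whether copy number bears on its value was not tested.

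CTSL, the lysosomal protease cathepsin L, differed in another way. It read 12.85 in parental sunitinib and 13.52 in SunR, and 12.84 and 12.85 in the untreated arrays, against 11.70, 11.67, 11.70 and 11.98 in parental dasatinib, parental pazopanib, DasR and PazR. Parental sunitinib thus sat at the untreated level (a difference from it of 0.00), while the other parental arrays lay at -1.16 from it, and the sunitinib difference was 1.42 ± 0.17 (SE, adjusted p = 0.0121). A second CTSL probe gave 1.36 ± 0.19 (SE, adjusted p = 0.0335), with all 4 dasatinib and pazopanib arrays (11.84 to 12.22) again below the sunitinib and untreated arrays. Another, dimmer probe gave 0.37 (adjusted p = 0.758), with SunR high at 9.59 and parental sunitinib low at 7.15. Differences between 1 parental array and the 2 untreated arrays are given as values, since they were not tested.

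Among named genes, 3 were lower in sunitinib. ALDH8A1, a retinal and kynurenine pathway dehydrogenase, read 7.08 in parental sunitinib and 7.18 in SunR, against 8.18, 8.75, 8.47 and 8.61 in parental dasatinib, parental pazopanib, DasR and PazR. The untreated arrays read 8.73 and 7.36 and spanned nearly the whole range, and the difference was -1.38 ± 0.18 (SE, adjusted p = 0.025). Its 2 other probes, both brighter, gave -1.23 (limma adjusted p = 0.115) and -1.03 (adjusted p = 0.234) and did not pass. On both, sunitinib lay below both other drugs in each cell state. On the brightest, the difference was -0.45 in parental and -1.61 in resistant cells. There parental sunitinib (9.94) lay above DasR (9.24) and PazR (9.51). HHLA2, a B7-family ligand that acts on T cells, read 7.39 and 6.56 against 7.96 to 8.72, with 8.13 and 8.09 untreated, a difference of -1.32 ± 0.14 (SE, adjusted p = 0.00772). LGALS1, galectin 1, read 13.53 and 13.78 against 14.18 to 14.39, with 14.17 and 13.84 untreated, a difference of -0.66 ± 0.10 (SE, adjusted p = 0.0438). ACTB, the cytoplasmic actin often used as a reference gene, was next to it at 13.29 and 13.64 against 14.05 to 14.27, a difference of -0.69 that did not pass (adjusted p = 0.0718).

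Sunitinib, a lipophilic weak base, is known to collect in lysosomes, and 4 lists of lysosome and autophagy genes were read for that reason. Apart from CTSL, none of their genes passed. Of 35 lysosomal hydrolases, 7 were higher and 1 lower at an unadjusted p under 0.05, with a median of 0.16, and 12 lay above both other drugs in each state. Of 24 lysosomal membrane and nutrient-sensing genes, 8 were higher and none lower, with a median of 0.27. V-ATPase subunits, which acidify the lysosome, had a median of 0.38, with 14 of 15 differences positive and 5 at an unadjusted p under 0.05. ATP6V1E1 was nearest to the threshold among them, with 11.93 and 12.77 in sunitinib against 11.07 to 12.07 (0.88, adjusted p = 0.193), and its ranges overlapped across states. Autophagy genes had a median of 0.25, with 12 of 30 higher and 1 lower. SQSTM1, the autophagy receptor p62, read 12.37 in parental sunitinib and 13.64 in SunR against 11.35 to 12.39 in the other drugs (1.35, adjusted p = 0.113), with PazR above parental sunitinib. Beside the 6.93% of all genes that were higher at that unadjusted level, these shares were 7 of 35, 8 of 24, 5 of 15 and 12 of 30.

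S phase genes had mostly negative differences, none of them called. Of 43 measured, none passed, 18 were lower and 1 higher at an unadjusted p under 0.05, against 5.2% and 6.93% of all genes, and 21 lay below both other drugs in each state, against 15.2%. The median difference was -0.36, and the list ran against dasatinib more than against pazopanib, with medians of -0.62 and -0.17. By cell state the median was -0.26 in parental and -0.47 in resistant cells. The paper reports that SunR proliferated slowly, and whether this bears on the resistant values was not tested. MCM4, a subunit of the replicative helicase, read 9.62 in parental sunitinib and 9.24 in SunR, against 10.96 and 10.97 in dasatinib, 10.43 and 10.25 in pazopanib, and 10.94 and 11.05 untreated (-1.22, adjusted p = 0.145). MCM5 (-1.07, adjusted p = 0.172) had the same order. In both genes the sunitinib arrays were the lowest of the 8, with the pazopanib arrays next. G2 and mitosis genes had a median of -0.20, with 7 of 44 lower and none higher, and none passed. Compared with untreated cells, the S phase median was -1.12 in parental sunitinib and -0.66 in the mean of parental dasatinib and pazopanib, values that were not tested. Oxidative phosphorylation genes were at -0.15 in the median, with 6 of 36 lower and none passing.

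None of the receptors that these TKIs inhibit passed between sunitinib and the other drugs. PDGFRA, a receptor tyrosine kinase at a high level in parental A204 cells, read 12.22 in parental sunitinib, 12.60 in parental dasatinib and 12.58 in parental pazopanib, and 9.87 in SunR, 9.63 in DasR and 10.45 in PazR. Its level followed cell state, and the sunitinib difference was -0.27 (95% CI -0.78 to 0.24, adjusted p = 0.748), with -0.49 on a second probe (adjusted p = 0.565). KIT, PDGFRB, CSF1R, FLT1, KDR, FLT4, FLT3 and RET lay between 6.21 and 7.09 on every array, near background, and none passed. FGFR1 read 7.73 and 7.72 in sunitinib against 7.80 to 7.89 (-0.14, adjusted p = 0.781), with 7.75 and 7.49 untreated. Among 16 targets of dasatinib, FYN, a SRC family kinase, was nearest to the threshold, at 0.65 (adjusted p = 0.126) and above both other drugs in each state, and SRC was at -0.25 (adjusted p = 0.697).

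Of the other lists, none held a called gene, and their medians lay between -0.11 and 0.26. Metallothionein MT1F came close, at 9.28 and 9.10 in sunitinib, 8.58 and 6.49 in dasatinib and 7.69 and 6.87 in pazopanib (1.79, adjusted p = 0.0739). IRF1, an interferon-induced factor, read 10.81 in parental sunitinib and 10.48 and 10.94 untreated against 8.65 and 8.45 in parental dasatinib and pazopanib, and 10.89 in SunR against 10.14 and 10.39 (1.44, adjusted p = 0.171). The aldo-keto reductases AKR1C2 and AKR1C3 differed through SunR, which read 11.06 and 11.65, while parental sunitinib read 6.51 and 7.11, like the other parental arrays. AKR1C2 turned from 1.61 to -0.13 without SunR. The ERK pathway output list had the widest gap between states among these, with a median of 0.02 in parental and 0.50 in resistant cells, and 1 of its 21 genes, the receptor EPHA4, passed the interaction (adjusted p = 0.00855).

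**Figure D4:**
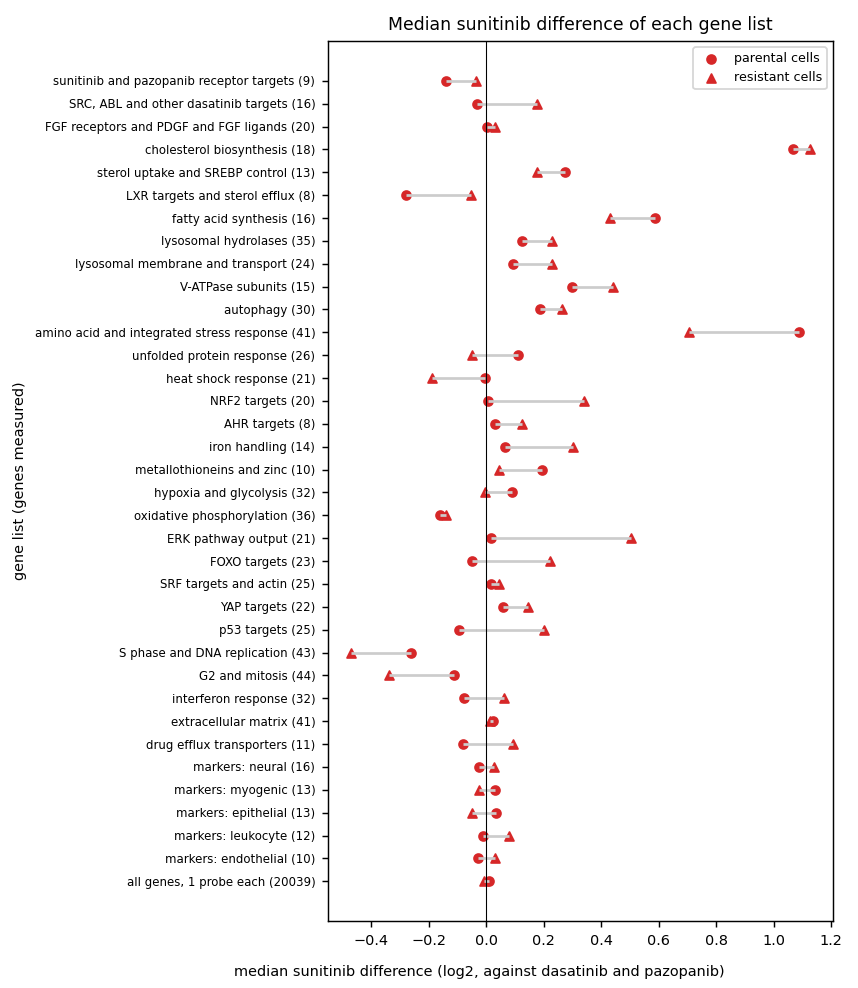
Each line is a gene list with its number of measured genes, the circle gives the median log2 sunitinib difference in parental cells and the triangle that in resistant cells. Cholesterol synthesis and the amino acid and integrated stress response lie farthest right in both states, S phase genes farthest left, and all genes at 0.

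Each of the other drugs was also compared with the remaining arrays in the same way. Dasatinib against the other drugs gave no call (0%; 2419 probes, 5.03%, at an unadjusted p under 0.05) and pazopanib gave none (0%; 1500 probes, 3.12%). These 3 comparisons share all 6 arrays and are not independent. For dasatinib and for pazopanib the sunitinib arrays were in the comparison group, so any sunitinib difference adds to the error of those fits. The counts of 0 follow in part from that and are no scale for how distinct sunitinib is. With the drug as 3 levels and p-values adjusted over the 3 pairs together, sunitinib against dasatinib gave 3 probes (0.00624%, and 9.07% at an unadjusted p under 0.05), sunitinib against pazopanib 2 (0.00416%, and 7.17%) and pazopanib against dasatinib none (1741 probes, 3.62%, at an unadjusted p under 0.05). Both TSC22D3 probes and SCD passed against dasatinib, and AKNA and 1 of the TSC22D3 probes against pazopanib. All of these pair calls were lost with no intensity trend in the variance prior. Adjusted over the pairs, HMGCS1 was at 2.47 against dasatinib (adjusted p = 0.0778) and 2.59 against pazopanib (adjusted p = 0.073), while pazopanib minus dasatinib was -0.12 with a 95% CI of -0.70 to 0.47. For ASNS that difference was -0.10 (95% CI -0.91 to 0.71) and for TRIB3 -0.07 (95% CI -0.56 to 0.43), so differences within these intervals are not excluded. For TSC22D3, pazopanib lay above dasatinib by 0.78 (95% CI 0.19 to 1.37), which did not pass after adjustment. These genes were called for sunitinib, which favors a small spread between pazopanib and dasatinib, so the size of that spread is given as a description.

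Whether the sunitinib difference was the same in sensitive and resistant cells was asked with an interaction term, in which the spread comes only from dasatinib against pazopanib within a state and SunR is a single array. No probe called for sunitinib passed the interaction, which follows largely from how they were called, since the error of that fit contains the interaction. Elsewhere 173 probes passed (0.36%, and 9.37% at an unadjusted p under 0.05), 151 with a larger value in resistant cells (0.314%) and 22 with a smaller one (0.0457%). The count was 89 without parental dasatinib, 75 without parental pazopanib, 1321 without DasR and 2924 without PazR. Most of the larger values were of genes high in SunR. In 118 of the 151, SunR read above all 7 other arrays, and in 85 by over 1 log2 unit. TMSB4X, thymosin beta 4, which binds actin monomers, read 14.27 in SunR and 8.48 to 8.89 on the 7 other arrays, an interaction of 5.34 ± 0.35 (SE, adjusted p = 9.2e-05). CCL20, a chemokine, read 11.02 against 6.42 to 6.81, and CAV1, caveolin 1, 11.40 against at most 7.32. IGFBP3, which binds insulin-like growth factors, read 11.85 against 6.88 to 7.83, and SFRP1, a WNT antagonist, 10.93 against 6.52 to 6.69. In these genes parental sunitinib was among the low arrays, so the differences were those of the SunR array, and drug, selection and the single line cannot be told apart. TPD52L1 differed in form, since SunR (10.51) read like the parental arrays (9.29 to 10.21), and DasR (6.71) and PazR (7.47) were low.

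The 22 probes with a smaller value in resistant cells were mostly high in parental sunitinib. In 20 of them parental sunitinib lay above both parental dasatinib and pazopanib, and in 20 the second untreated array lay within 1 log2 unit of parental sunitinib. RPS24, a ribosomal protein of the small subunit, read 12.65 in parental sunitinib and 12.61 in the second untreated array, against 10.34 and 10.21 in parental dasatinib and pazopanib and 11.56 in the first untreated array. EEF1B2, a translation elongation factor subunit, read 11.92 and 11.72 on the same arrays against 9.42 to 9.88 on all 6 others. The untreated arrays thus differed from each other here by more than 1 log2 unit in RPS24 and EEF1B2, and what set parental sunitinib apart on these probes was not tested. RPS24, EEF1B2 and TMSB4X have closely similar copies in the genome that a probe may not tell apart. DCN (decorin) and REEP2 passed through high values in DasR (9.06 and 9.90) and PazR (8.51 and 9.84), against 6.51 and 8.15 in SunR. REEP2, EEF1B2 and DCN lost the interaction call in 2 of the 4 fits without 1 comparison array.

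**Figure D5:**
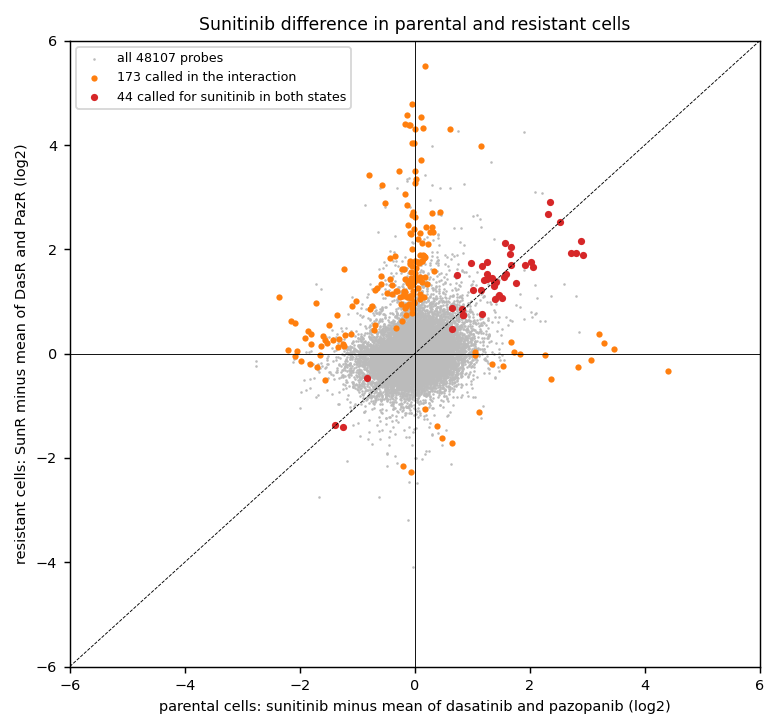
Each point is a probe, with the sunitinib difference in parental cells on the horizontal and in resistant cells on the vertical axis, both log2, and a dashed line of equality. The 44 probes called for sunitinib lie along the line in both states, and the 173 probes called in the interaction lie away from it, 151 above the line and 22 below it.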

How the data were processed

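The authors deposited log2 signals, which they had made from HumanHT-12 v4 BeadChips with beadarray by log2 transformation and quantile normalization, and what was done to the background is not given in the sources used here. Probes were named through their platform annotation, updated by gene identifier. In R 4.3.3, limma 3.58.1 fitted cell state and sunitinib to the 6 drug-treated arrays (3 residual degrees of freedom) with eBayes and an intensity trend, and p-values were adjusted by Benjamini-Hochberg over all 48107 probes at 0.05. An interaction fit and a fit with 3 drug levels used the same arrays, the latter adjusted over its 3 pairs together. Untreated arrays served only for reference levels. The genes named are the 15 highest and 15 lowest called genes, the receptors with FGFR1 and SMARCB1, and up to 5 genes of smallest p of each of 35 lists, by the brightest probe for receptors and lists, and any further gene was named after its values were seen. Members and lists were chosen with earlier results of these data known. The fits were tested on simulated data. Alternatives changed the variance prior, the probes, an added intensity of 50, the block, the arrays and the test (Student's t-test). Every sample column was used (0 left out).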

Additional observations from a re-analysis of the deposited data

Results flagged for a closer look

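Among the 4 dasatinib and pazopanib arrays, 1 array was flagged as apart from the other 3 in 6 of 44 gene values examined. The 6 values were CTSL at 11.98 in PazR, MVD at 7.75 and ENDOV at 6.82 in DasR, PSAT1 at 10.89 and FGFR1 at 7.80 in parental pazopanib, and NR4A2 at 8.40 in parental dasatinib. The flag takes the gap as a share of the range, so a small gap can raise it, and the other FGFR1 values were 7.88 to 7.89. These arrays differ in drug and cell state and are not replicates, so no chance rate applies to the count. For CTSL, MVD and NR4A2 the array apart was the highest of the 4 and still lay below both sunitinib arrays.

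The sunitinib difference itself differed between resistant and parental cells on 173 probes in limma. With a larger value in resistant cells, the interaction was 5.34 for TMSB4X, 4.72 for MUCL1, 4.58 for CCL20, 4.48 for IGFBP3, 4.48 for CAV1, 4.31 for CD70, 4.22 for TPD52L1, 4.20 for SFRP1, 4.06 for SEL1L3 and 3.78 for PLPP3, all on the log2 scale. In the other direction it was -2.85 for RPS24, -2.36 for REEP2, -2.28 for EEF1B2, -2.23 for CCDC28B and -2.20 for DCN. RPS24 and the 10 genes before it passed in all 4 fits without 1 comparison array, while REEP2, EEF1B2, CCDC28B and DCN passed in 2 of 4, with a highest adjusted p of 0.148, 0.251, 0.153 and 0.111 in limma. Each resistant value of sunitinib rests on the single SunR array.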

How the results depend on the processing

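The count of 44 probes for sunitinib against dasatinib and pazopanib became 119 with robust eBayes, 26 on the brighter 50% of the probes, 20 with the drug as 3 levels, 18 with 1 probe per gene, 9 without the 2 pazopanib arrays and 0 without the cell state block. Without the intensity trend it was 45, of which 24 were among the 44. Leaving out 1 array gave 4 to 405, and where a sunitinib array was left out the lone one was assumed to vary like the others. Student's t-test, which the paper names for its figures in general and not for this comparison, gave 2698 probes unadjusted and 0 after Benjamini-Hochberg. A Signal2Noise ranking, the paper's array method, has no block and shared 16 of its top 100 probes with limma. The cause of these shifts was not tested, except that fewer arrays or probes, or more drug levels, change the error term by construction. The interaction count of 173 became 44 without the trend, 276 with robust eBayes, 85 on the brighter 50% of the probes, and 75 to 2924 without 1 comparison array. The pair counts of 3 and 2 both became 0 without the trend. The last 2 kinds of alternative were chosen after seeing the data. Over 528 values of the 33 called genes under an alternative, 309 kept the call, 219 lost it and 0 changed direction. Of 1972 values of genes not called, 50 became called and 12 changed direction. FLT4 (0.040) and RET (0.039) did so without the 2 dasatinib arrays and SMARCB1 (0.032) without the 2 pazopanib arrays. Over the fits without 1 array, CSF1R ran from -0.31 to 0.084, FLT1 from -0.21 to 0.12, RET from -0.16 to 0.043, SMARCB1 from -0.10 to 0.023, AKR1C2 from -0.13 to 3.34, CDKN1A from -0.019 to 1.44 and ABCA2 from -1.45 to 0.11. No paired analysis was possible because the labels number only the 2 untreated arrays, which enter no test, and the treated arrays carry no replicate number. With 1 array per drug and state, drug, culture and array cannot be told apart, and probes near background limit what can be read for most receptors.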
